A study of Mus musculus with 20 samples.

Results

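The hepatic transcripts of hepcidin and 8 further genes of systemic iron handling were followed in mice deprived of dietary cysteine. The 9 genes were taken by name from the count table, which holds 46078 genes. They comprise the hormone gene Hamp, the ligand gene Bmp6, the sensor genes Hfe and Tfr2, the exporter gene Slc40a1, the uptake genes Trf and Tfrc, and the ferritin genes Fth1 and Ftl1. Liver RNA from 20 male mice was sequenced. They carried or lacked a functional copy of Cse, the gene of cystathionine γ-lyase, which allows cysteine to be made from methionine. Of the Cse+/- mice, 2 received the control diet, 4 a diet without cysteine (no-Cys) and 3 a diet without tryptophan (no-Trp). Of the Cse-/- mice, 4 received no-Cys, 3 no-Trp and 4 no-Trp with BSO (no-Trp + BSO). BSO (L-buthionine sulfoximine) blocks the first step of glutathione (GSH) synthesis. The labels call the control genotype WT, whereas the study's list of mice calls it heterozygous, and it is written Cse+/- here. All mice were on a mixed 129/C57BL/6 background, were at least 9 weeks old when the diets began, and were calorie-restricted throughout, at first on the control diet and then on the test diet. Livers were taken on the second day of the test diet, and the defined diets were complete apart from the amino acid removed. No Cse-/- mice on the control diet were part of these groups, so that the diet effect in Cse-/- mice was read against no-Trp. Each library is named by its mouse number (av01 to av22).

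Hepcidin is a small secreted peptide of hepatocytes that binds the iron exporter ferroportin, the product of Slc40a1, and causes its degradation. Its gene is driven by BMP6, which is released mainly by liver sinusoidal endothelial cells when iron stores rise, with HFE and transferrin receptor 2 as hepatocyte sensors of transferrin-bound iron, and by STAT3 in inflammation. Iron inside the cell also acts through iron regulatory proteins, which bind hairpins called iron-responsive elements (IREs): at the start of a transcript these hairpins hold back translation, and at its end they protect the transcript from decay. Ferritin genes are in addition known targets of NRF2, the factor of the oxidative stress response.

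The hairpins are shown because they separate members whose transcript level iron can set by decay from members whose translation it can set, which counts of RNA do not see. A search of the GENCODE M21 transcript with the longest coding part of each gene, for a C, 5 bases, the loop CAGTGN and 5 bases pairing with the first 5 (G-T pairs allowed), found matches in 4 of the 9 members. Of 21584 protein-coding genes, 252 (1.17%) held such a match anywhere in that transcript. The Tfrc transcript held 4 in its 3′ untranslated part, in exon 19 of 19, and Fth1, Ftl1 and Slc40a1 held 1 each in the 5′ untranslated part, in exon 1. The capitals mark the loop, and coordinates are of GRCm38.
Tfrc, chr16:32631218-32631247, plus strand: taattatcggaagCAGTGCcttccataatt
Tfrc, chr16:32631597-32631626, plus strand: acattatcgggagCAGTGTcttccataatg
Tfrc, chr16:32631662-32631691, plus strand: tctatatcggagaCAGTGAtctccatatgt
Tfrc, chr16:32631709-32631738, plus strand: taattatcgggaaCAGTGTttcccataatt
Fth1, chr19:9982731-9982760, plus strand: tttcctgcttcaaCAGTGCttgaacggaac
Ftl1, chr7:45459779-45459808, minus strand: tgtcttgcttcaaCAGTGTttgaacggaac
Slc40a1, chr1:45925465-45925494, minus strand: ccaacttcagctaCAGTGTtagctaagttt

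The start of Hamp is shown beside that of its tandem paralog Hamp2, which does not serve as an iron hormone, since both were counted here. Over the 250 bases before the start sites (RefSeq, GRCm38) the genes were 89.7% identical. GGCGCC, the letters of the BMP-responsive element, stood at position -109 of Hamp, counted from the first transcribed base as 0, whereas the aligned stretch of Hamp2 carried the substitution G4A, counted from the first base of the element. TTCNNNGAA, a STAT motif, was found in both genes. The capitals mark these stretches.
Hamp, chr7:30944091-30944180, minus strand: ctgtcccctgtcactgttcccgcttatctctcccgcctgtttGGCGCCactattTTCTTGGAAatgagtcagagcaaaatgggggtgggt
Hamp2, chr7:30924240-30924329, minus strand: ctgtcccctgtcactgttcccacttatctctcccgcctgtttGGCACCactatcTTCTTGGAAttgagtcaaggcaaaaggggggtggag
Of all 32851 such promoter windows, 9.59% held GGCGCC and 7.02% held TTCNNNGAA on either strand. Of the 9 members, 7 had a promoter entry. GGCGCC was also found before 1 of the start sites of Tfrc, and TGACNNNGC, the core of the antioxidant response element, before Bmp6 and Hfe, against 10.2% of all windows. None of these letters stood in the windows of Fth1, Ftl1 and Tfr2. A match is a description of letters and not of a bound site, and the lack of a match says only that the letters are not in this window. Hepcidin is also rich in the amino acid that the diet lacked: 9 of the 83 codons of Hamp encode cysteine (10.8%), as do 38 of the 697 codons of Trf (5.45%), against a median of 2.13% over 21584 coding genes and 0.546% for Ftl1.

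Between 11785740 and 57986121 reads were counted on genes per library (median 15252745). The knocked-out gene, listed as Cth, was at 88.4 to 332 CPM in the 9 Cse+/- libraries and at 6.37 to 14.4 CPM in the 11 Cse-/- libraries, in accord with the labels. Values are given as CPM, counts scaled by TMM factors to a common library size, and a gene is called changed at an edgeR adjusted p under 0.05 over the 14759 genes tested. All 9 members passed the filter on low counts, the scarcest being Bmp6 with 40 to 197 counts per library. Hepatocyte, endothelial, Kupffer cell and stellate cell markers were detected in every group. Between genotypes on no-Cys, 1 of 10 endothelial markers rose (Lyve1, 7.14 to 15.9 CPM) and 1 fell (Fcgr2b, 48.9 to 37.1 CPM), 2 of 6 stellate cell markers fell, and none of 8 Kupffer cell markers was called, all with negative values (median log2 fold change −0.33). Of all genes tested, 11.6% were called higher and 12.2% lower between these groups, so that such counts alone do not show a change of a cell type. The summed level of 7 erythroid markers was lower in Cse-/- no-Cys livers (69.1 to 114 CPM) than in Cse+/- no-Cys livers (201 to 407 CPM), and all 5 that could be tested fell, among them the globin gene Hbb-bs (log2 fold change −1.94, standard error (s.e.) 0.336, edgeR adjusted p = 4.38e-04). The share of erythroid cells in the values of the members, Tfrc among them, was not tested. In bulk liver, fewer cells of a type and less RNA per cell cannot be told apart.

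Per kilobase of the transcript with the longest coding part, the mean levels over all 20 livers ran from Fth1 (2792 CPM per kb), Ftl1 (2332) and Hamp (1814) through Trf (187) and Tfr2 (178) to Slc40a1 (47.9), Hfe (12.1), Tfrc (7.68) and Bmp6 (1.14). The order of the first 3 depends on the length used. Per kilobase of all annotated exons, of which Fth1 has 3469 bases against 929 in that transcript, Hamp came first, followed by Ftl1 (1684) and Fth1 (748). Transcripts for iron storage and for the hormone were thus far more abundant than that of the classical transferrin receptor. The members also differed in how much they varied. Across the 20 livers the highest CPM was 7.73 times the lowest for Hamp, 4.44 times for Tfrc and 3.28 times for Trf, whereas it was 2.50 times for either ferritin, 1.87 times for Slc40a1 and 1.57 times for Tfr2.

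**Figure D1:**
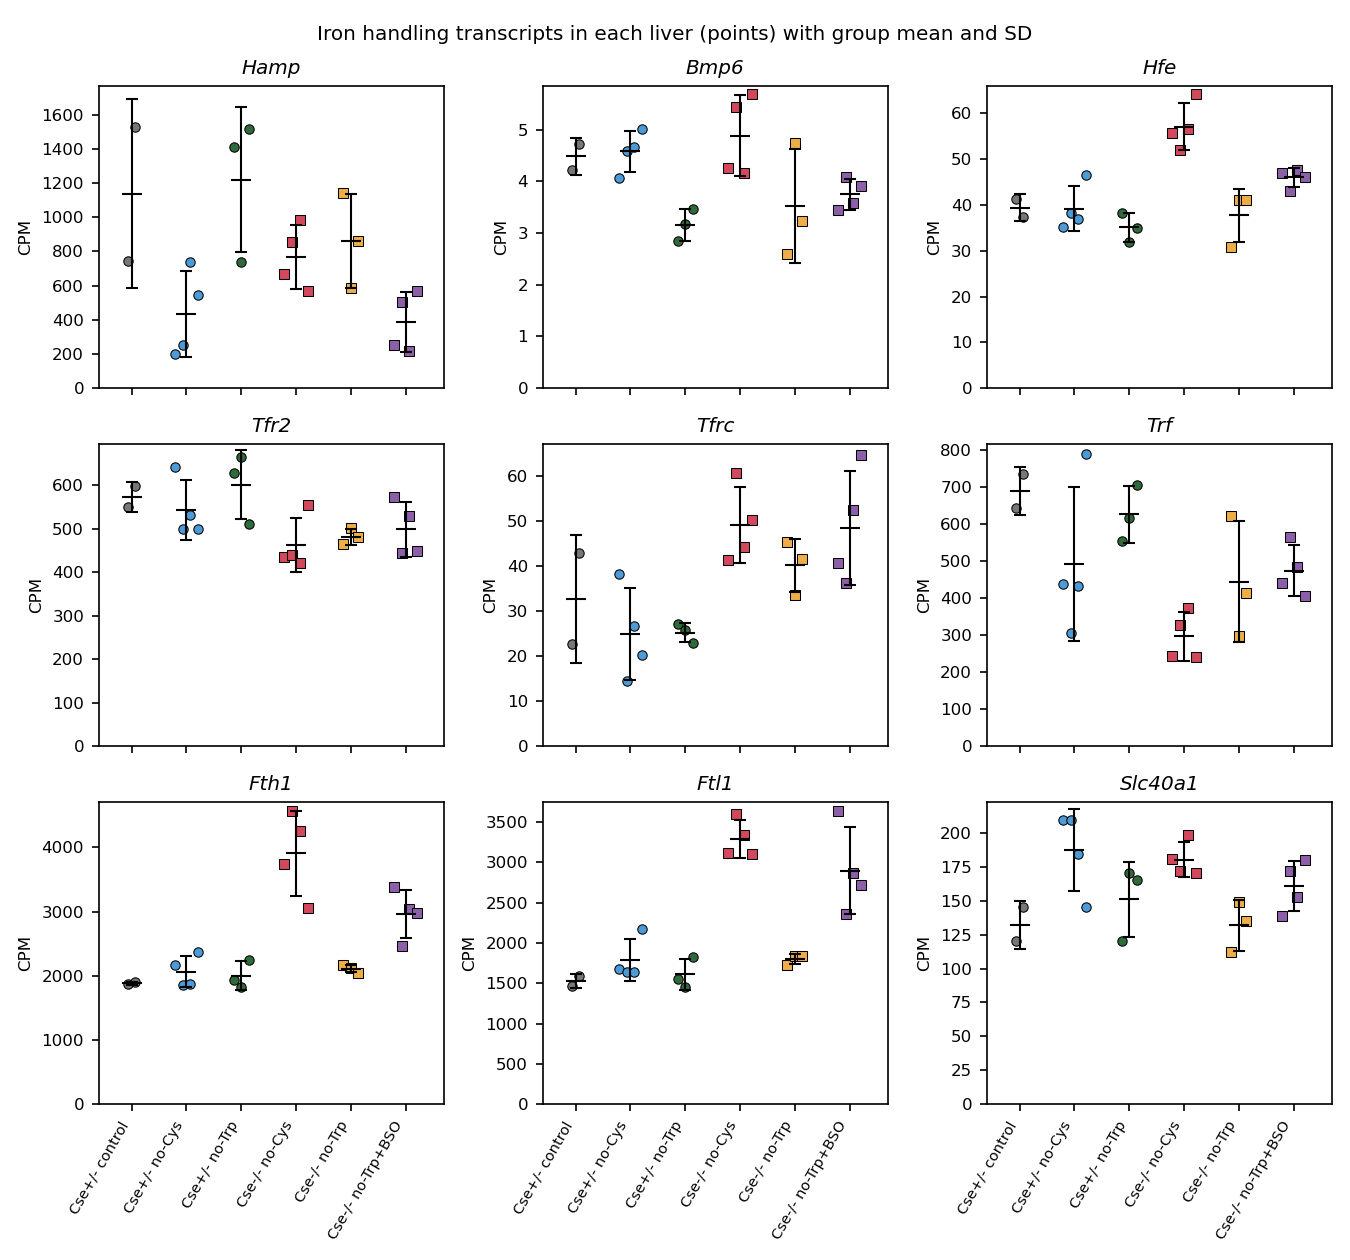
CPM of the 9 members in each of the 20 livers, by group, with circles for Cse+/- and squares for Cse-/- mice; horizontal bars are group means and vertical bars the SD. The Fth1 and Ftl1 points of Cse-/- mice given no-Cys or no-Trp + BSO lie above those of the other 4 groups, while Hamp spreads widely within most groups.

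The first question was what cysteine deprivation does to these genes when it is not buffered by synthesis, read from Cse-/- against Cse+/- mice on the no-Cys diet. Of the 9 members, 4 rose (Fth1, Ftl1, Tfrc and Hfe), 1 fell (Trf), and Hamp, Bmp6, Tfr2 and Slc40a1 did not pass the threshold. In this comparison 23.8% of all genes tested were called, 11.6% higher and 12.2% lower. The median log2 fold change of the members was 0.54, against −0.01 over all genes tested. The libraries of the 4 genes that rose did not overlap between genotypes, which held for 12.0% of all genes in that direction.

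The ligand gene Bmp6 (chromosome 13, 38345107 to 38500302, plus strand) was the scarcest member and differed little between genotypes. It was at 4.88 ± 0.787 CPM (mean ± SD, 4 livers) in Cse-/- no-Cys and 4.58 ± 0.400 CPM (mean ± SD, 4 livers) in Cse+/- no-Cys livers, a log2 fold change of 0.08 (s.e. 0.171, edgeR adjusted p = 0.766). By diet it was highest on no-Cys in both genotypes, and lowest on no-Trp, at 3.52 ± 1.10 CPM (mean ± SD, 3 livers) in Cse-/- and 3.16 ± 0.307 CPM (mean ± SD, 3 livers) in Cse+/- livers. The difference between the diets did not pass the threshold in Cse-/- mice (log2 fold change 0.48, s.e. 0.184, edgeR adjusted p = 0.0973). Without mouse av15, whose 4.74 CPM stood above the 2.59 and 3.23 CPM of the other Cse-/- no-Trp mice, it did (0.73, edgeR adjusted p = 0.0156). Bmp6 overlaps Txndc5 on the opposite strand, and since the library kit does not mark strand, reads of the shared stretch cannot be told apart.

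The sensors parted. Hfe (chromosome 13, 23702034 to 23710854, minus strand) encodes a class I-like protein that binds transferrin receptor 1. It was at 55.7, 52.0, 56.6 and 64.3 CPM in the 4 Cse-/- no-Cys livers and at 35.2, 38.2, 37.0 and 46.5 CPM in the 4 Cse+/- no-Cys livers. Every Cse-/- value lay above every Cse+/- value, and the rise was 1.46-fold (log2 fold change 0.54, s.e. 0.105, edgeR adjusted p = 0.00107). Tfr2 (chromosome 5, 137569840 to 137587481, plus strand), the receptor that senses holotransferrin on hepatocytes, was at 463 ± 61.8 against 543 ± 68.0 CPM (mean ± SD, 4 livers each), with a log2 fold change of −0.23 (s.e. 0.117, edgeR adjusted p = 0.160). Mouse av08 held 555 CPM of Tfr2, above the 422 to 440 CPM of the other Cse-/- no-Cys mice. Without it the log2 fold change was −0.33 and passed the threshold (edgeR adjusted p = 0.0435).

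Hepcidin itself spread widely within most groups. Hamp (chromosome 7, 30942368 to 30944032, minus strand) was at 667, 853, 984 and 567 CPM in Cse-/- no-Cys livers and at 198, 254, 739 and 545 CPM in Cse+/- no-Cys livers. Of the Cse+/- livers, av03 (739 CPM) lay within the Cse-/- range and the other 3 below it. The difference of 1.77-fold (log2 fold change 0.82, s.e. 0.389) stayed short of the threshold (edgeR adjusted p = 0.133). It passed without mouse av03, the highest Cse+/- liver (1.21, edgeR adjusted p = 0.0390), and when no gene was filtered out (0.83, edgeR adjusted p = 0.0376). In the remaining groups Hamp was at 746 and 1530 CPM in Cse+/- control, 1408, 735 and 1516 CPM in Cse+/- no-Trp, and 1140, 588 and 858 CPM in Cse-/- no-Trp livers. It was at 252, 506, 218 and 567 CPM in Cse-/- no-Trp + BSO livers, the group with the lowest mean (386 ± 176 CPM, SD, n = 4). In the order of the 6 group means, from Cse+/- no-Trp (1220 CPM) down to no-Trp + BSO, no neighbouring groups were free of overlap.

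Hamp2 was scarce beside Hamp, with 0.442% to 12.1% of their joint counts in a liver. Its level was 9.62 ± 6.32 CPM (mean ± SD, 3 livers) in Cse+/- no-Trp and 42.4 ± 12.5 CPM (mean ± SD, 3 livers) in Cse-/- no-Trp livers, without overlap, and the log2 fold change of 2.14 (s.e. 0.670) stayed short of the threshold (edgeR adjusted p = 0.0890). On the no-Cys diet 1 Cse-/- mouse, av08, carried 78.4 CPM and the others 14.8, 11.0 and 6.83 CPM. The log2 fold change between genotypes was 1.62 (s.e. 0.600, edgeR adjusted p = 0.0556) and dropped to 0.28 without av08. It passed by the DESeq2 Wald test (adjusted p = 0.0452) and without av05, av06 or av07 (edgeR adjusted p of 0.0214 to 0.0474). Both genotype differences of Hamp2 passed with no filter (edgeR adjusted p = 0.00374 on no-Trp and 0.00416 on no-Cys). On no-Cys against no-Trp in Cse-/- mice the log2 fold change of Hamp2 was −0.62, with overlap (s.e. 0.590, edgeR adjusted p = 0.543). Only without av08 did it pass the threshold (−1.96, edgeR adjusted p = 0.00638). Of the 61-base words of Hamp, 10% also occur in Hamp2, and reads of those stretches are lost or split.

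The exporter gene Slc40a1 (chromosome 1, 45908068 to 45926523, minus strand), whose protein is the target of hepcidin, was at 170 to 198 CPM in Cse-/- and 145 to 209 CPM in Cse+/- no-Cys livers. Its log2 fold change was −0.05 (s.e. 0.133, edgeR adjusted p = 0.820).

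The uptake genes moved in opposite directions. Trf (chromosome 9, 103204001 to 103230444, minus strand) encodes transferrin, the plasma carrier that hepatocytes secrete. It was at 244, 326, 374 and 240 CPM in Cse-/- no-Cys livers and at 438, 306, 432 and 787 CPM in Cse+/- no-Cys livers. The ranges overlapped through mouse av02, and the fall (log2 fold change −0.73, s.e. 0.240, edgeR adjusted p = 0.0334) depended on single mice. Without av04, the highest Cse+/- liver, it was −0.40 (edgeR adjusted p = 0.179). It missed the threshold also without av05 (edgeR adjusted p = 0.101), without av08 (0.0810) and when only the pair of groups was fitted (0.0671). Of 8 hepatocyte markers 4 fell and 1 rose in the same livers (23.8% of all genes were called), and the albumin gene Alb had a log2 fold change of −1.26 (s.e. 0.172, edgeR adjusted p = 4.79e-05). Whether Trf moved with them for a shared reason was not tested. Of the 61-base words of Trf, 57.9% also occur in other annotated genes, mainly Gm20425, which overlaps it on the same strand and was listed with 0 counts in every library. The level of Trf is therefore less certain than those of Tfr2, Tfrc and Slc40a1, which share no such word.

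Tfrc (chromosome 16, 32608920 to 32632794, plus strand), transferrin receptor 1 and the transcript with the 4 hairpins at its end, was at 41.4, 60.5, 44.2 and 50.2 CPM in Cse-/- no-Cys livers. It was at 38.3, 14.5, 26.6 and 20.3 CPM in Cse+/- no-Cys livers, all below the Cse-/- values. The rise was 1.98-fold (log2 fold change 0.98, s.e. 0.244, edgeR adjusted p = 0.00643), and leaving out each mouse gave 0.79 to 1.26. On no-Trp the genotype difference of Tfrc stayed short of the threshold (edgeR adjusted p = 0.196). Over all diets the genotypes overlapped: the 9 Cse+/- livers ranged from 14.5 to 42.8 CPM (median 25.8) and the 11 Cse-/- livers from 33.6 to 64.5 CPM (median 44.2).

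The ferritin genes rose together. Fth1 (chromosome 19, 9980598 to 9985098, plus strand) encodes the heavy chain with ferroxidase activity. It was at 3745, 4563, 4262 and 3064 CPM in Cse-/- no-Cys livers and at 2164, 1854, 1881 and 2371 CPM in Cse+/- no-Cys livers. The lowest Cse-/- value exceeded the highest Cse+/- value, and the rise was 1.89-fold (log2 fold change 0.92, s.e. 0.125, edgeR adjusted p = 4.65e-05). Ftl1 (chromosome 7, 45457944 to 45459884, minus strand) encodes the light chain, which helps the iron core form. It was at 3113, 3599, 3331 and 3097 CPM in Cse-/- and at 1678, 1643, 1644 and 2174 CPM in Cse+/- no-Cys livers, again without overlap (1.84-fold, log2 fold change 0.88, s.e. 0.125, edgeR adjusted p = 6.71e-05). Leaving out each mouse gave 0.83 to 1.02 for Fth1 and 0.83 to 0.99 for Ftl1.

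The chains kept a narrow proportion. The CPM of Fth1 was 0.931 to 1.29 times that of Ftl1 over all 20 livers. It was 0.931 to 1.10 in Cse-/- no-Trp + BSO livers and 0.989 in mouse av08, against 1.09 to 1.29 in the remaining livers. Of the 61-base words of Ftl1, 55.3% also occur in other annotated genes, mainly its processed pseudogenes, against 1.27% for Fth1. Reads that fit both are lost or split, so that the level of Ftl1 and its ratio to Fth1 are less certain than the level of Fth1. The most abundant copy, Ftl1-ps1, held at most 93.6 CPM.

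**Figure D2:**
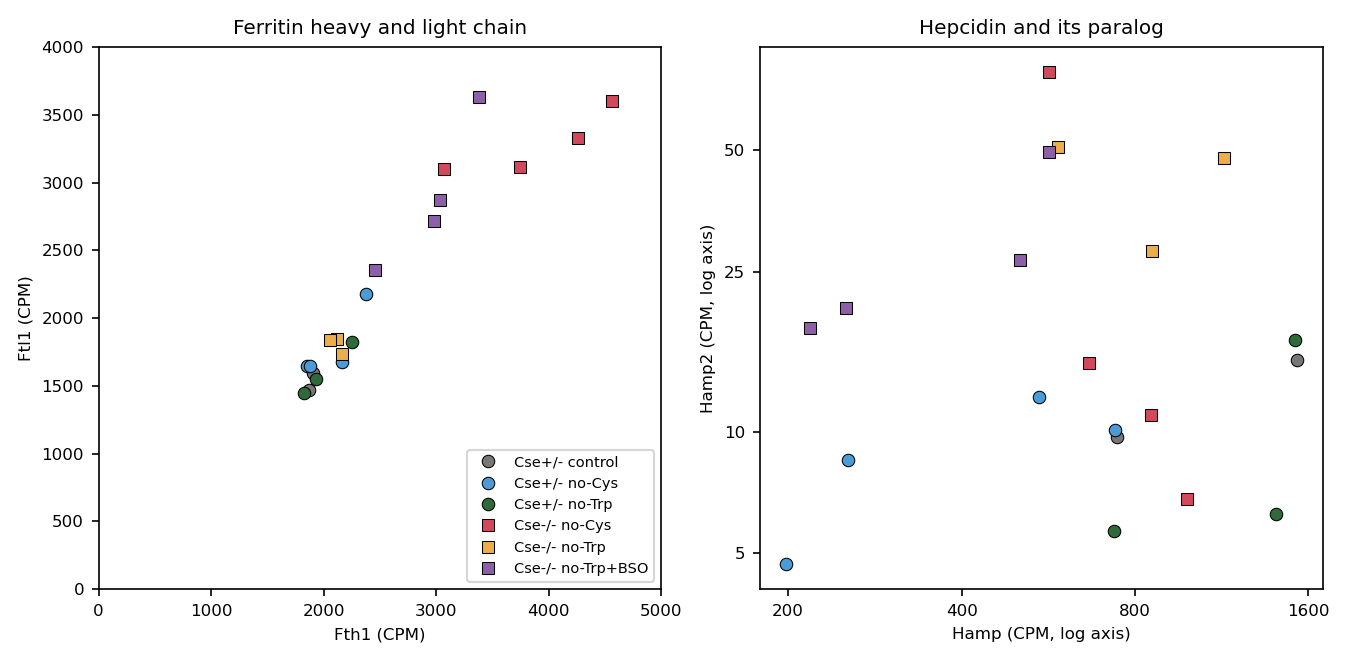
Left, CPM of Fth1 against Ftl1 in each liver on linear axes; right, CPM of Hamp against Hamp2 on log axes. The ferritin points form a single band along which the Cse-/- no-Cys and no-Trp + BSO livers lie highest, whereas Hamp2 ran from 4.69 to 78.4 CPM at Hamp levels of 198 to 1530 CPM.

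The no-Trp diet served to separate the lack of cysteine from the lack of an essential amino acid in general. The comparisons that follow share samples: Cse-/- no-Cys and Cse-/- no-Trp livers enter several of them. In Cse-/- mice on no-Cys against no-Trp, 3 of the 9 members rose and none fell, where 10.4% of all genes were called and 5.05% were called higher. Fth1 was at 2164, 2119 and 2052 CPM on no-Trp, below all 4 no-Cys livers (log2 fold change 0.89, s.e. 0.137, edgeR adjusted p = 6.12e-04). Ftl1 was at 1732, 1842 and 1835 CPM on no-Trp, also without overlap (0.87, s.e. 0.136, edgeR adjusted p = 6.57e-04). Hfe, at 30.9, 41.1 and 41.0 CPM on no-Trp, was likewise higher on no-Cys in every liver (0.60, s.e. 0.114, edgeR adjusted p = 0.00317). Non-overlap upward held for 10.2% of all genes. In the same contrast 3 of the 5 erythroid markers tested and 3 of 8 hepatocyte markers fell, among them Hba-a2 (−1.20, edgeR adjusted p = 0.0428) and Ttr (−0.64, edgeR adjusted p = 0.0174), and their part in the values of the members was not tested.

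Slc40a1 was also higher on no-Cys in each liver, at 181, 172, 198 and 170 CPM against 112, 149 and 135 CPM, but narrowly missed the threshold (log2 fold change 0.45, s.e. 0.145, edgeR adjusted p = 0.0523). It passed by the DESeq2 Wald test (adjusted p = 0.0263), with no filter (edgeR adjusted p = 0.0464) and without mouse av08 (0.0497) or av15 (0.0390). Tfrc, which differed between genotypes, had a log2 fold change of 0.29 between these diets (s.e. 0.257, edgeR adjusted p = 0.513). That of Hamp was −0.17 (s.e. 0.416, edgeR adjusted p = 0.846), that of Trf −0.58 (s.e. 0.256, edgeR adjusted p = 0.153; −0.26 without av14) and that of Tfr2 −0.06 (s.e. 0.126, edgeR adjusted p = 0.811).

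Between genotypes on the no-Trp diet no member was called, where 2.64% of all genes were. By the DESeq2 Wald test the count was also 0 (4.89% of all genes), and 2 members, Tfrc and Tfr2, had an unadjusted p under 0.05 (18.4% of all genes). Tfrc was at 45.2, 33.6 and 41.6 CPM in Cse-/- and 27.0, 25.8 and 22.9 CPM in Cse+/- livers, without overlap (log2 fold change 0.67, s.e. 0.276, edgeR adjusted p = 0.196). Tfr2 was at 465, 501 and 481 CPM in Cse-/- and 628, 664 and 512 CPM in Cse+/- livers, also without overlap (−0.32, s.e. 0.135, edgeR adjusted p = 0.211). Non-overlap held for 10.1% of all genes upward and 9.51% downward. Fth1 and Ftl1 had log2 fold changes of 0.08 and 0.16 (s.e. 0.144 and 0.143, edgeR adjusted p = 0.821 and 0.575). The other members overlapped, with log2 fold changes of −0.50 for Hamp, −0.49 for Trf, −0.20 for Slc40a1, 0.10 for Hfe and 0.13 for Bmp6 (edgeR adjusted p of 0.354 to 0.765).

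The interaction term asked whether the genotype difference itself was larger on no-Cys than on no-Trp. It was called for 2 of the 9 members, the ferritin genes, both upward, where 4.36% of all genes were called and 1.67% upward. Its log2 size was 0.84 for Fth1 (s.e. 0.190, edgeR adjusted p = 0.0164) and 0.72 for Ftl1 (s.e. 0.189, edgeR adjusted p = 0.0366). For Fth1 it held when any single mouse was left out, at 0.75 to 0.94. For Ftl1 it ran from 0.62 to 0.83, and the threshold was missed without av02, av03, av06, av07, av14, av15, av16, av17 or av20, with edgeR adjusted p of 0.0554 to 0.0853. For Tfrc the term was 0.31 (s.e. 0.367, edgeR adjusted p = 0.697), so that its genotype difference was not shown to depend on the diet. For Hfe it was 0.44 (s.e. 0.160, edgeR adjusted p = 0.128) and for Hamp 1.32 (s.e. 0.592, edgeR adjusted p = 0.222). It was −0.24 for Trf, −0.05 for Bmp6, 0.09 for Tfr2 and 0.15 for Slc40a1 (edgeR adjusted p of 0.741 to 0.945). The term was also called for cell type markers, among them Alb (a negative term, edgeR adjusted p = 0.0345) and Ttr (−0.81, edgeR adjusted p = 0.0492) of hepatocytes, Alas2 (−1.12, edgeR adjusted p = 0.0242) of erythroid cells and Lyve1 (1.30, edgeR adjusted p = 0.0110) of endothelial cells.

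Adding BSO to the no-Trp diet tested the effect of blocking GSH synthesis without removing cysteine. In Cse-/- mice 1 of the 9 members was called, where 0.793% of all genes were called and 0.488% were called higher. Ftl1 was at 3632, 2354, 2869 and 2714 CPM with BSO, above the 1732 to 1842 CPM without it (log2 fold change 0.68, s.e. 0.136, edgeR adjusted p = 0.0188). This call was lost without av09, the highest of these livers (0.54, edgeR adjusted p = 0.0936), without av11, av14, av15 or av16 (0.0578 to 0.0796), and when only the pair of groups was fitted (0.0549). Fth1 was at 3380, 2459, 3036 and 2983 CPM with BSO, above all 3 livers without it. Its log2 fold change of 0.49 (s.e. 0.136) missed the threshold of edgeR (adjusted p = 0.0955) and passed that of DESeq2 (adjusted p = 0.0257). Hamp lay lower with BSO in every liver (218 to 567 against 588 to 1140 CPM), a log2 fold change of −1.16 (s.e. 0.414, edgeR adjusted p = 0.199) that passed only with no filter (edgeR adjusted p = 0.0303). Hfe lay higher with BSO in every liver (43.1 to 47.7 against 30.9 to 41.1 CPM), without passing the threshold (0.29, s.e. 0.113, edgeR adjusted p = 0.256). The remaining members overlapped, with log2 fold changes of 0.05 for Tfr2, 0.09 for Trf, 0.10 for Bmp6, 0.27 for Tfrc and 0.29 for Slc40a1 (edgeR adjusted p of 0.406 to 0.927). Non-overlap held for 6.47% of all genes upward and 6.13% downward.

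**Figure D3:**
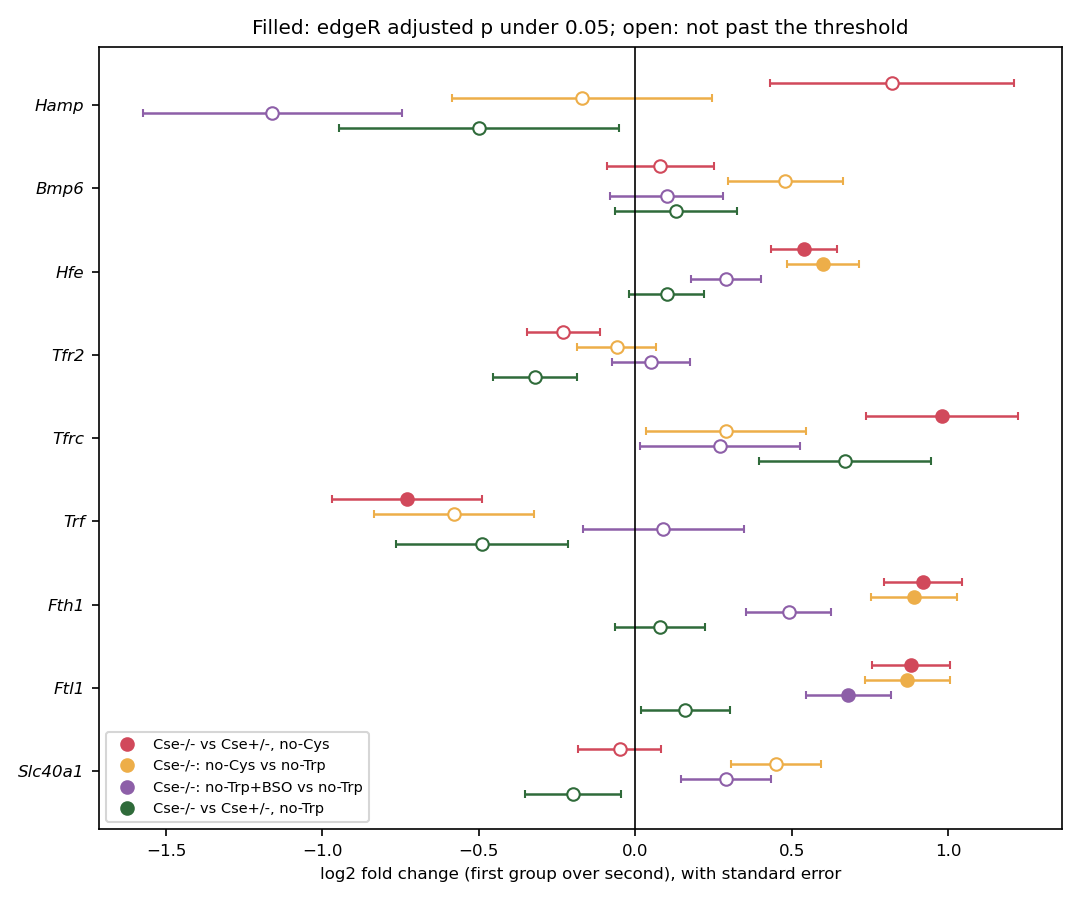
Log2 fold change of each member in 4 comparisons, first group over second, with the standard error of the fit; filled circles passed an edgeR adjusted p under 0.05 and open circles did not. The ferritin genes lie between 0.87 and 0.92 in both no-Cys comparisons and between 0.08 and 0.16 for genotype on no-Trp.

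Set directly against each other in Cse-/- mice, no-Cys and no-Trp + BSO gave no called member, where 2.75% of all genes were called. By the DESeq2 Wald test 1 member was called (Fth1, adjusted p = 0.0291; 5.60% of all genes), and 5 had an unadjusted p under 0.05 (20.0% of all genes). Ftl1 differed by a log2 fold change of 0.18 (s.e. 0.124, edgeR adjusted p = 0.428) and Tfrc by 0.02 (s.e. 0.236, edgeR adjusted p = 0.979). Fth1 was 0.40 higher on no-Cys (s.e. 0.124, edgeR adjusted p = 0.0825) and passed without mouse av08 (0.50, edgeR adjusted p = 0.0131). Hamp had a log2 fold change of 0.99 without overlap (s.e. 0.390, edgeR adjusted p = 0.166), and Trf of −0.67 without overlap (s.e. 0.240, edgeR adjusted p = 0.124). Both passed with no filter (edgeR adjusted p = 0.0425 and 0.0289), and Trf also when only these groups were fitted (0.0385). Of 8 hepatocyte markers 4 fell in this contrast, among them Ttr (−0.82, edgeR adjusted p = 0.00965). Hfe and Bmp6 were also higher on no-Cys without overlap (0.31 and 0.38, s.e. 0.104 and 0.167, edgeR adjusted p = 0.0998 and 0.212). Tfr2 and Slc40a1 overlapped (−0.11 and 0.16, edgeR adjusted p = 0.639 and 0.525). Non-overlap held for 6.42% of all genes upward and 6.24% downward. These results do not show that the diets act alike on any member.

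In Cse+/- mice, which can make cysteine, no member was called on no-Cys against the control diet, where 2.18% of all genes were, nor on no-Trp against control, where 0.0474% were. DESeq2 called 0 members in either comparison (3.87% and 0.386% of all genes). On no-Cys 2 members had an unadjusted p under 0.05 (16.6% of all genes) and on no-Trp 1 did (9.29%). With 2 control mice these comparisons are the weakest. On no-Cys, Hamp had a log2 fold change of −1.39 (s.e. 0.456, edgeR adjusted p = 0.116) and passed with no filter (edgeR adjusted p = 0.00883). Without av22, the higher of the control livers, it was −0.78 (edgeR adjusted p = 0.791). The log2 fold change of Slc40a1 was 0.50 (s.e. 0.167, edgeR adjusted p = 0.125) and passed without av04 (edgeR adjusted p = 0.0469). Neither overlapped with control, and Ftl1 (1643 to 2174 CPM) also lay above both control livers (1469 and 1591 CPM; log2 fold change 0.22, s.e. 0.153, edgeR adjusted p = 0.489). Non-overlap held for 12.4% of all genes downward and 13.2% upward. The log2 fold changes of Trf, Tfrc, Tfr2, Hfe and Bmp6 were −0.49, −0.40, −0.08, −0.00 and 0.04 (edgeR adjusted p of 0.411 to 0.991). On no-Trp, Bmp6 had a log2 fold change of −0.50 without overlap (s.e. 0.218, edgeR adjusted p = 0.499), where non-overlap downward held for 14.6% of all genes. Those of the others ran from −0.37 for Tfrc through −0.17 for Hfe, −0.14 for Trf, 0.07 for Tfr2 and 0.10 for Hamp to 0.20 for Slc40a1 (edgeR adjusted p of 0.759 to 0.972). The ferritin genes had log2 fold changes of 0.07 to 0.22 on both diets, none past the threshold. Across the 12 livers of the 3 Cse+/- groups and the Cse-/- no-Trp group, Fth1 ranged from 1824 to 2371 CPM and Ftl1 from 1450 to 2174 CPM.

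The rest of the pathway was read in the same contrast, Cse-/- against Cse+/- on no-Cys, from lists chosen by function. Of 22 further genes of hepcidin regulation, 1 rose and 2 fell, beside the 23.8% of all genes called, with a median log2 fold change of −0.10. The gene that rose was Id1, a transcriptional target of BMP signalling (6.23 ± 2.11 to 14.9 ± 4.68 CPM, SD, n = 4 each; log2 fold change 1.26, s.e. 0.294, edgeR adjusted p = 0.00414). Its mean was also 14.9 CPM in Cse-/- no-Trp livers. Against these, no-Cys gave a log2 fold change of 0.00 (edgeR adjusted p = 0.996), and the interaction term was 0.88 (edgeR adjusted p = 0.268). The genes that fell were Acvr1, a type I receptor of BMPs (−0.51, edgeR adjusted p = 0.0197), and Tmprss6, the hepatocyte protease that dampens hepcidin expression (−0.36, edgeR adjusted p = 0.0295). The other BMP targets Smad6, Smad7 and Atoh8 did not pass the threshold, with log2 fold changes of −0.13, −0.10 and 0.49. Of 12 acute phase genes, which share the STAT3 input of Hamp, 1 fell (Orm1, −1.16, edgeR adjusted p = 0.0328). All 12 had negative values, with a median of −0.46, and likewise between genotypes on no-Trp, with a median of −0.64 and no call. In Cse+/- mice 11 of the 12 had positive values against the control diet, on no-Cys (median 0.28) and on no-Trp (median 0.66), also without a call. Single livers differed widely, with Saa1 at 23.7 to 729 CPM in Cse+/- and 12.8 to 191 CPM in Cse-/- no-Cys livers.

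Of 14 genes of heme synthesis and breakdown, 5 rose and 2 fell, beside the 23.8% of all genes called. The largest rises were those of Slc48a1, the transporter that returns heme from the lysosome to the cytosol, Blvrb, a biliverdin reductase, and Hmox1, the heme oxygenase that frees iron from heme. Slc48a1 went from 53.9 ± 5.16 to 143 ± 19.9 CPM (SD, n = 4 each; log2 fold change 1.41, s.e. 0.116, edgeR adjusted p = 1.90e-07). Blvrb went from 120 ± 28.4 to 207 ± 46.6 CPM (0.79, edgeR adjusted p = 0.00507) and Hmox1 from 11.5 ± 1.82 to 18.0 ± 3.44 CPM (0.65, edgeR adjusted p = 0.0109). Uros also rose (0.43), and Alad and Urod fell (−0.30 and −0.24), all enzymes of heme synthesis. Of 9 genes of iron uptake and transport 1 fell, Scara5, a ferritin receptor (−1.85, edgeR adjusted p = 0.0464). Of 6 genes of intracellular iron storage and sensing 1 rose, Pcbp2, an iron chaperone (0.40, edgeR adjusted p = 0.0131). The iron regulatory protein genes Aco1 and Ireb2 both had a log2 fold change of 0.00.

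The heme list held calls in 4 of the 7 other contrasts and none for no-Cys against no-Trp + BSO or for either diet against control in Cse+/- mice. On no-Cys against no-Trp in Cse-/- mice 5 of its 14 genes rose and none fell (10.4% of all genes were called), among them Slc48a1 (1.23, edgeR adjusted p = 1.47e-05). Hmox1 was not called there (0.06, edgeR adjusted p = 0.884). With BSO on no-Trp 3 rose (0.793% of all genes were called), among them Slc48a1 (0.86, edgeR adjusted p = 0.00216) and Blvrb (0.93, edgeR adjusted p = 0.0383). For the interaction 4 were called, all with a positive term (4.36% of all genes were called). The 4 were Slc48a1, Blvrb, Hmox1 and Alas1. Genotype differences on no-Cys and no-Trp were 1.41 and 0.27 for Slc48a1, 0.79 and −0.38 for Blvrb, and 0.65 and −0.45 for Hmox1. Alas1, the rate-limiting enzyme of heme synthesis, was picked out after its values were seen. It was lower in Cse-/- than Cse+/- mice on no-Trp (−1.57, edgeR adjusted p = 2.04e-04) and higher in Cse-/- mice on no-Cys than on no-Trp (1.21, edgeR adjusted p = 6.12e-04). It was also higher with BSO on no-Trp (0.94, edgeR adjusted p = 0.0181), and its interaction term was 1.48 (edgeR adjusted p = 0.00336). Its genotype difference on no-Cys was −0.09 (edgeR adjusted p = 0.723). Its mean was lowest in Cse-/- no-Trp livers (426 CPM), against 817 to 1636 CPM in the other 5 groups. In the hepcidin list Hjv, the BMP co-receptor, fell with BSO (−0.74, edgeR adjusted p = 0.0112), beside the lower Hamp values of the same livers. Smad6, Smad7 and Cebpa were lower on no-Cys than on no-Trp in Cse-/- mice (−0.73, −0.52 and −0.52, edgeR adjusted p of 0.0265, 0.0322 and 0.0253). The interaction called 1 gene of that list, Socs3, an inhibitor of STAT3 signalling, with a positive term (1.28, edgeR adjusted p = 0.0473), and the remaining 4 contrasts called none. Socs3 was at 13.3 CPM in Cse-/- livers on either diet, against 10.2 CPM on no-Cys and 24.9 CPM on no-Trp in Cse+/- livers. Of the uptake and transport list, Scara5 was lower in Cse-/- than Cse+/- mice on no-Trp (−4.05, edgeR adjusted p = 0.00345) and lower in Cse+/- mice on no-Cys than on control (−2.78, edgeR adjusted p = 0.0183). The storage and acute phase lists held no call in the 7 other contrasts.

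**Figure D4:**
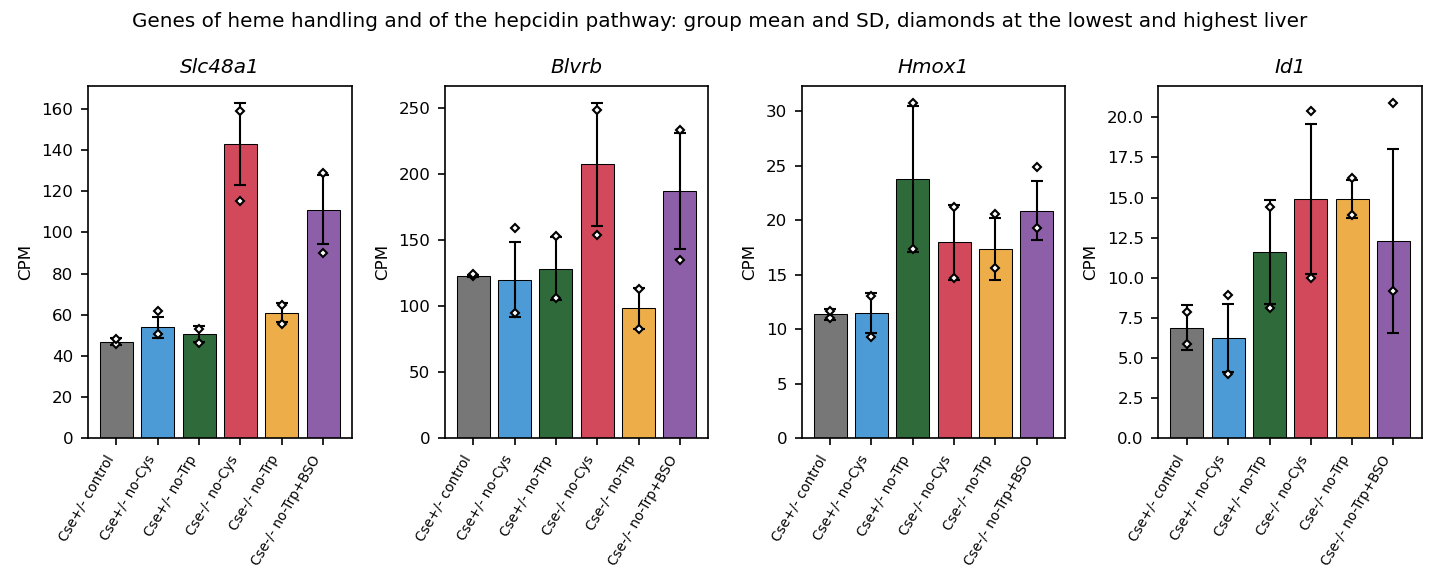
Mean CPM (bars) with SD (lines) and the lowest and highest liver (diamonds) of Slc48a1, Blvrb, Hmox1 and Id1 in the 6 groups. Slc48a1 is highest in Cse-/- no-Cys livers (143 CPM) and next in no-Trp + BSO livers (111 CPM), whereas Hmox1 is highest in Cse+/- no-Trp livers (23.8 CPM).

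The genes whose log2 CPM ran most like a member over the 20 livers were sought among all genes with a mean of at least 1 CPM, as a description, since the livers share groups and scaling. For Fth1 they were Htatip2 (Pearson r = 0.970), Ftl1 (0.959) and Slc48a1 (0.956). For Tfrc they were Chchd6 (0.834), Kat6b (0.833) and Fip1l1 (0.830). For Hamp the highest values were lower, with Prelid3b (0.791), Csnk1g3 (0.767) and Ube2f (0.762).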

How the data were processed

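Polyadenylated liver mRNA was made into libraries with a kit that does not mark strand. The authors mapped reads to GRCm38 with HISAT2 2.1.0, counted them per gene with HTSeq 0.11.0 (per the labels) and deposited raw counts. Their annotation release is not stated in the sources at hand. Columns are named by mouse number, which the labels do not tie to samples. They were assigned to groups from the study's list of mice, whose group sizes equal those of the labels, and 1 column outside that list was not used. Symbols were found for 45143 of 46078 genes.

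After filterByExpr (minimum count 10, minimum total 15) and TMM scaling, all 20 libraries were fitted together by group with the quasi-likelihood test of edgeR 4.0.16 (limma 3.58.1, R 4.3.3; common dispersion 0.027). Two-sided P values were adjusted over 14759 genes by the Benjamini–Hochberg method in each of 8 comparisons. All 9 genes are named in every comparison. Of each pathway list (not the cell type markers, of which single examples are given), the 3 called genes with the largest change between genotypes on no-Cys are named, and others as examples of a count. The 3 genes most like a member are given for Hamp, Tfrc and Fth1. Alternatives were DESeq2 1.42.0 (Wald test), upper-quartile or RLE factors, an unfiltered table, a fit of the compared groups alone, a threshold of 0.01, and leaving out each mouse. The script was tested on simulated data. Transcripts came from GENCODE M21 and promoters from RefSeq, both GRCm38. The labels do not say whether mice shared a litter. The members and lists were chosen with earlier results of these data known.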

Additional observations from a re-analysis of the deposited data

Results flagged for a closer look

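Within the groups of 4, a liver far from the others was seen in 2 of 27 sets of member and group, where chance flags about 1 in 20. Tfr2 was at 555 CPM in mouse av08 of the Cse-/- no-Cys group, against 422 to 440 CPM in the other 3, and the same mouse had the highest Hamp2 level of all livers (78.4 CPM). Ftl1 was at 2174 CPM in mouse av04 of the Cse+/- no-Cys group, against 1643 to 1678 CPM in the other 3, and the same mouse had the highest Trf level of all livers (787 CPM).

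For the ferritin genes the difference between genotypes itself differed between the no-Cys and no-Trp diets, by a log2 interaction term of 0.84 for Fth1 (edgeR adjusted p = 0.0164) and 0.72 for Ftl1 (edgeR adjusted p = 0.0366).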

How the results depend on the processing

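No paired analysis was possible because the columns carry mouse numbers and not the replicate numbers of the labels. Of 1010 fold changes of a gene under another setting, 930 kept their direction and their side of the threshold, 25 newly passed it, 19 no longer passed it and 36 changed sign. The share of all genes called under a setting is given in parentheses, and with no filter it is over the 14759 genes of the filtered table. Between genotypes on no-Cys the count of members called was 5 (23.8%) and ran from 4 to 6 under the alternatives, with 4 at an adjusted p under 0.01 (12.6%) and 4 to 6 when each mouse was left out (18.1% to 23.7%). The count was 1 for no-Trp + BSO against no-Trp in Cse-/- mice (0.793%). It became 2 with no filter (1.92%) and by DESeq2 (2.22%), 0 when only the groups compared were fitted (0.521%) or at an adjusted p under 0.01 (0.190%), and 0 to 1 when each mouse was left out (0.245% to 1.16%). For no-Cys against no-Trp + BSO the count of 0 (2.75%) became 2 with no filter (3.92%), 1 when only those groups were fitted (4.11%) and 1 by DESeq2 (5.60%). It was 0 to 1 when each mouse was left out (0.352% to 6.97%), with 1 without av08 (6.97%). For Cse+/- mice on no-Cys against control the count of 0 (2.18%) became 1 with no filter (3.25%) and 0 to 1 when each mouse was left out, with 1 without av04 (2.62%). For no-Cys against no-Trp in Cse-/- mice the count of 3 (10.4%) was 3 to 5 when each mouse was left out (4.65% to 12.6%), with 5 without av15 (11.0%). When only the groups compared were fitted, 3.81% of all genes were called. The interaction count of 2 (4.36%) became 0 at an adjusted p under 0.01 (1.08%) and 1 to 2 when each mouse was left out (2.37% to 7.80%). Between genotypes on no-Trp, leaving out each mouse gave -0.77 to -0.29 for Hamp and -0.83 to -0.28 for Trf. The causes were not tested.

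The 36 changes of sign came from leaving out single mice, for log2 fold changes that had passed no threshold. Left-out values ran, for Bmp6, from -0.05 to 0.12 (Cse+/- no-Cys against control), -0.08 to 0.35 (BSO), -0.13 to 0.30 (genotype on no-Trp) and -0.22 to 0.21 (interaction). In Cse+/- no-Trp against control they ran from -0.00 to 0.16 for Fth1, -0.02 to 0.15 for Ftl1, -0.32 to 0.72 for Hamp, -0.00 to 0.17 for Tfr2 and -0.76 to 0.16 for Tfrc. In Cse+/- no-Cys against control they ran from -0.09 to 0.07 for Hfe and -0.79 to 0.13 for Tfrc. For Tfr2 they ran from -0.03 to 0.09 (BSO) and -0.01 to 0.19 (interaction), and for Trf from -0.14 to 0.41 and -0.46 to 0.10. The others were Hamp from -0.39 to 0.09 (no-Cys against no-Trp), Slc40a1 from -0.15 to 0.01 (genotype on no-Cys), and Tfrc from -0.10 to 0.20 and Hamp2 from -1.41 to 0.35 (no-Cys against BSO). Protein, iron and translation were not measured here.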
